A study of Mus musculus with 6 samples.

Results

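The Wnt ligands, their receptors and co-receptors, the secreted agonists and inhibitors, and the feedback genes and transcription factors of the pathway were followed in mouse 3T3 cells treated with baicalin. Members were found by gene symbol, under a rule set with earlier results of these data known. All Wnt, Fzd, Sfrp, Dkk, Rspo and Kremen genes were taken, with Lrp5, Lrp6, Axin1, Axin2, Nkd1, Nkd2, Lef1, Frzb, Wif1 and the Tcf7 genes. This gave 56 of the 54532 genes in the table. Of these, 19 are Wnt ligands, 4 R-spondins, 10 Frizzled receptors, 2 LRP co-receptors, 2 Kremen genes, 10 secreted inhibitors, 4 cytoplasmic feedback genes and 4 transcription factors. The remaining member, Rspo4os, is an antisense transcript at the Rspo4 locus and encodes none of these proteins.

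The 6 RNA-seq libraries were made from polyadenylated RNA of wild-type 3T3 cells, which derive from mouse fibroblasts and are labelled adipocytes. The DMSO group of 3 samples received the solvent and the baicalin group of 3 received 200 µM baicalin, a flavone glucuronide from Scutellaria roots. Neither the subline nor the differentiation procedure nor the length of treatment is stated in the sources used here. The labels do not say whether samples of a group were separate cultures. The p-values therefore refer to the spread between these 6 samples only, and that spread may be technical. Libraries held from 16730594 to 18326874 counts, and a gene with 0 reads in a library may still have a level of up to 3 counts, which is 0.163 to 0.181 CPM (reads scaled to a common library size with TMM factors). The range covers counting error only. The fat cell markers Lep and Slc2a4 had 2 and 6 reads in all 6 libraries together. In DMSO, mean levels were 1443 and 429.7 CPM for Lpl and Fabp4, and 18.9 and 17.6 CPM for Plin1 and Pparg. Adipoq, Cidec and Cebpa reached only 1.66, 5.28 and 0.98 CPM. The fibroblast and preadipocyte markers Dlk1 and Pdgfra stood at 1297 and 1427 CPM, and Col1a1 and Col1a2 at 2895 and 7964 CPM. Thy1, Pdgfrb and Dcn of the same list stood at 115.1, 351.5 and 455.3 CPM, beside or below Lpl and Fabp4. Apart from Lpl and Fabp4 the fat cell markers were lower than all 7 of these, so the label is met only in part. CPM is not divided by gene length.

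Wnt proteins are lipid-modified growth factors that bind Frizzled receptors on the cell surface. When a Wnt engages Frizzled together with LRP5 or LRP6, the complex that destroys beta-catenin is held inactive, and beta-catenin enters the nucleus and acts with the TCF and LEF transcription factors. Other Wnts, WNT5A among them, act mainly through branches that do not use beta-catenin. In preadipocytes, signalling through beta-catenin is known to hold back fat cell formation, and Wnt10b is the ligand best known for this.

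More of the tested members were lower than higher in baicalin. Among the 23 members with enough reads to test, 14 were lower, 4 higher and 5 not called, using the quasi-likelihood test of edgeR and a threshold of 0.05 on the p adjusted by Benjamini-Hochberg. Across all 13728 genes tested, 34.1% were lower, 33.6% higher and 67.7% called in either direction. A fall of at least 2-fold was found for 7 of the 23 members, against 9.71% of all genes, and a rise of that size for 0 members, against 5.24% of all genes. Which members pass 2-fold depends on the processing. With length and GC trends removed, Wnt5a (log2 fold change -0.95) and Lrp6 (-0.93) fell short of it. Fzd2 (-1.15) and Tcf7l1 (-1.02) passed it there. The median log2 fold change was -0.63 over the tested members and 0.0014 over all tested genes. Groups did not overlap for 17 members, 13 of them lower and 4 higher, where each direction held 35.1% of all genes. Scaling by library size alone shifts the all-gene median by -0.13, and with it 1 member was higher and 16 were lower. Among all called genes the share of rises was then 37.4% instead of 49.7%. The other 33 members had too few reads to test, and 29 of them had at most 10 reads in the 6 libraries together.

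**Figure D1:**
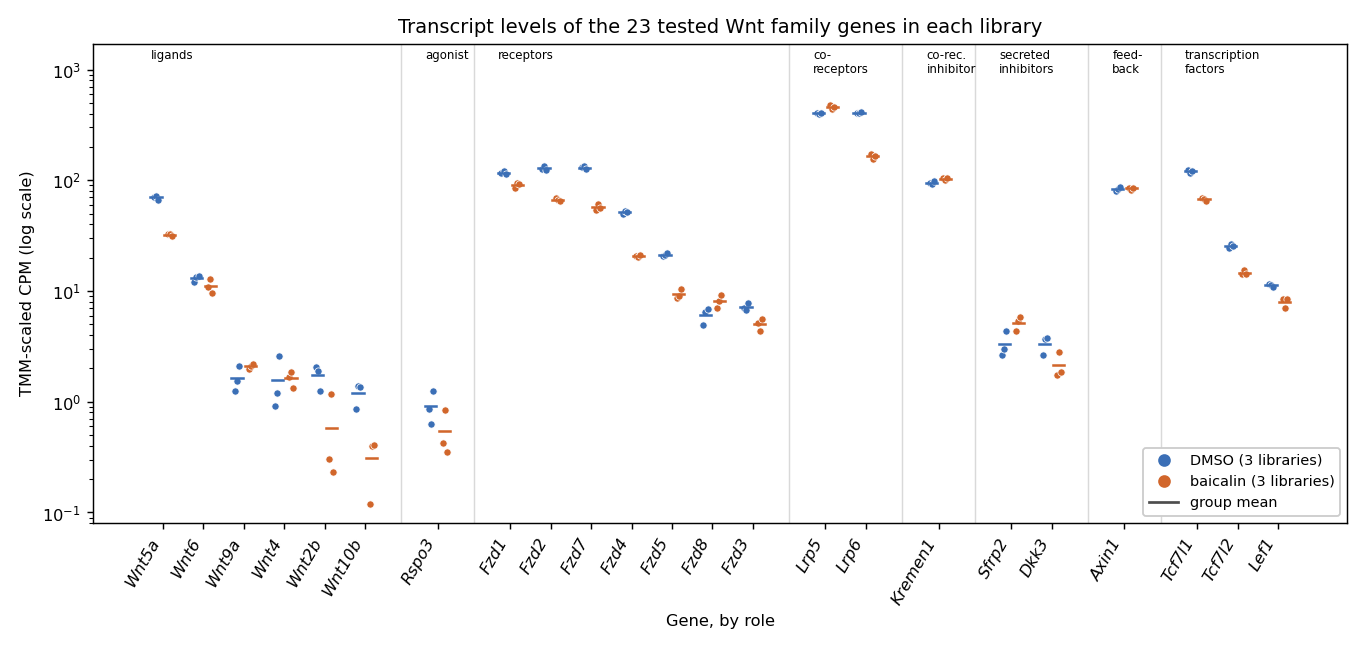
Levels of the 23 tested Wnt family genes in each library, as CPM scaled by TMM factors (trimmed mean of M-values), on a log axis. Points are libraries, 3 per group, and short lines are group means. Fzd2, Fzd4, Fzd5, Fzd7, Lrp6 and Wnt5a show separate groups, whereas Axin1 and Wnt4 overlap.

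Of the 19 ligand genes 6 could be tested, of which 3 fell and 0 rose, and their median log2 fold change was -0.68. Among all tested genes 34.1% fell and 33.6% rose. Wnt5a (ENSMUSG00000021994, chromosome 14, 28504750 to 28527448, mm10) was the most abundant ligand in DMSO per unit of length. The level was 71.0, 72.2 and 66.7 CPM in the DMSO libraries and at 32.9, 32.5 and 31.2 CPM in the baicalin libraries. Every baicalin library lay below every DMSO library, and the fall was 2.17-fold (log2 fold change -1.12, SE 0.06, adjusted p = 1.41e-23). Exons of Wnt5a overlap those of the opposite-strand gene Gm2670 over 358 bp, and that gene had 28 reads in all.

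Wnt10b, the ligand linked to restraint of fat cell formation, was expressed at a low level. The DMSO libraries held 16, 24 and 25 of its reads and the baicalin libraries 2, 7 and 7, or 1.203 ± 0.291 and 0.308 ± 0.163 CPM (SD, n = 3 each). The groups did not overlap, and the fall was 3.80-fold (log2 fold change -1.93, SE 0.45, adjusted p = 0.000167). For Wnt2b the DMSO libraries held 38, 33 and 23 reads and the baicalin libraries 5, 21 and 4. Here the second baicalin library, at 1.19 CPM, lay just under the lowest DMSO library, at 1.26 CPM, while the other two were at 0.30 and 0.23 CPM. The fall of Wnt2b was 2.96-fold (log2 fold change -1.57, SE 0.41, adjusted p = 0.000956). Its size rests in part on that library: without baicalin replicate 2 the log2 fold change was -2.66 (adjusted p = 1.93e-06).

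Wnt6, another ligand reported to restrain fat cell formation, measured 11.97, 13.5 and 13.6 CPM under DMSO and 10.8, 12.7 and 9.49 CPM under baicalin. These ranges overlap, and the log2 fold change of -0.24 (SE 0.11) was not called (adjusted p = 0.0562). The value lies close to the threshold. Leaving out baicalin replicate 2 (-0.35, adjusted p = 0.013) or DMSO replicate 1 (-0.29, adjusted p = 0.0413) made it a call, as did removal of length and GC trends (-0.50, adjusted p = 9.42e-05). Over all its alternatives the adjusted p ran from 9.42e-05 to 0.357. Wnt9a (0.37, SE 0.28) and Wnt4 (0.06, SE 0.32), which had 196 and 169 reads in all, were not called either (adjusted p = 0.235 and 0.886).

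The other 13 ligand genes were close to silent. Wnt5b had 5 DMSO and 11 baicalin reads, and Wnt10a had 6 and 9. Each of the remaining 11 had at most 3 reads in the 6 libraries together, among them Wnt1 with 1 read and Wnt3a with 0, the ligands most used to start beta-catenin signalling in experiments.

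On the authors' FPKM scale, which divides by gene length and so allows genes to be compared, the ligand transcripts summed to 16.2, 17.3 and 16.9 FPKM in DMSO and 10.8, 11.7 and 9.77 FPKM in baicalin. Wnt5a made up 53.7% ± 3.03 of that sum in DMSO and 39.1% ± 2.92 in baicalin, and Wnt6 35.7% ± 1.44 and 47.4% ± 2.497 (SD, n = 3 each). Wnt5a thus stood above Wnt6 in each DMSO library, at 8.57 to 9.29 against 5.52 to 6.26 FPKM. In each baicalin library it stood below, at 4.05 to 4.30 against 4.403 to 5.87 FPKM. Whether fewer cells carry a transcript or each cell carries less of it cannot be told apart in bulk RNA.

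R-spondins are secreted agonists that keep Frizzled receptors at the cell surface. Rspo3 was the one that could be tested, with 0.87, 0.63 and 1.26 CPM in DMSO and 0.42, 0.85 and 0.35 CPM in baicalin. The second baicalin library fell within the DMSO range, and the log2 fold change of -0.76 (SE 0.43) was not called (adjusted p = 0.11). Without that library it was called, at -1.23 (adjusted p = 0.0345), and over its alternatives the adjusted p ran up to 0.436. Rspo1, Rspo2 and Rspo4 had 5, 5 and 2 reads in DMSO and none in baicalin. The antisense transcript Rspo4os had 7 and 6 reads.

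Of the 10 Frizzled receptor genes 7 were tested, with 6 falls and 1 rise, and their median log2 fold change was -0.94. The shares over all tested genes were 34.1% lower and 33.6% higher. The falls were not even: Fzd4, Fzd5 and Fzd7 fell by more than 2-fold, Fzd2 by slightly less, and Fzd1 and Fzd3 by less than 1.5-fold. Promoter windows of the 3 receptors past 2-fold are shown, from 250 bases before to 50 bases after the RefSeq start on GRCm38.p6. Beside them stands the window of the feedback gene Axin2, the classical transcriptional readout of beta-catenin. Capitals mark motif matches on either strand.
Fzd4, chr7:89404116-89404415, plus strand: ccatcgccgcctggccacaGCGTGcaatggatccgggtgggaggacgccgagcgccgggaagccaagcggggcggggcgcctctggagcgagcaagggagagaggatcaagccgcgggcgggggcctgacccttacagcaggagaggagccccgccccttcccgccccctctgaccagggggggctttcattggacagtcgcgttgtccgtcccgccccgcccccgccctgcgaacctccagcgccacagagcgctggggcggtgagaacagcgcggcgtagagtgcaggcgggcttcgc
Fzd5, chr1:64737701-64738000, minus strand: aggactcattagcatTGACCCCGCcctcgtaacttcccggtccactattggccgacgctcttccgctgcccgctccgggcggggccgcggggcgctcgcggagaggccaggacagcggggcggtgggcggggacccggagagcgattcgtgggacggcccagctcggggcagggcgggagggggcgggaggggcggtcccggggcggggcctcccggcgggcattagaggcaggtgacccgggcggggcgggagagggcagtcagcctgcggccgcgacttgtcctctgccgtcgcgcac
Fzd7, chr1:59481897-59482196, plus strand: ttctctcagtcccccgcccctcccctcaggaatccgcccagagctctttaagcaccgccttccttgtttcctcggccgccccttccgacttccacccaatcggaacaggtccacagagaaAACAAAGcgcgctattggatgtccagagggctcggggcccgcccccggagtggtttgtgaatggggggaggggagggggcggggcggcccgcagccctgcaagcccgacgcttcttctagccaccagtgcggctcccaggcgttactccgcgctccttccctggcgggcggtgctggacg
Axin2, chr11:108920099-108920398, plus strand: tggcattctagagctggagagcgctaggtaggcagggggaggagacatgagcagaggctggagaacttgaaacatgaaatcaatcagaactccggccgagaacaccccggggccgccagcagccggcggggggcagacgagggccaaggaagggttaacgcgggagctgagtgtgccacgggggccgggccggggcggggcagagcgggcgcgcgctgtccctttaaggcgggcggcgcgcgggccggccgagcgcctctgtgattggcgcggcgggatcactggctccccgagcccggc

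The motifs searched were of 3 kinds. For TCF/LEF, the letters CTTTGAA were searched along with the spelling CTTTGAT, the spelling CTTTGTT and also the spelling CTTTGTA. For the aryl hydrocarbon receptor the core GCGTG was used, and for NRF2 the letters TGACNNNGC. TCF/LEF was included for the pathway itself and the aryl hydrocarbon receptor as a sensor of planar ligands such as flavonoids. NRF2 was included as a transcription factor that responds to oxidative stress. Fzd7 held 1 TCF/LEF match, 130 bases before the start, read on the opposite strand. Fzd4 held 1 GCGTG match, 231 bases before the start, and Fzd5 1 NRF2 match, 235 bases before it, whereas Axin2 held none of the 3. No match overlapped another in these windows. The windows of Wnt2b and Wnt10b, ligands also past 2-fold, are not printed. Each held 1 GCGTG match, and that of Wnt2b also held 1 NRF2 match. Over the 13 tested members with an entry, which have 17 windows, 3 windows held a TCF/LEF match, 9 a GCGTG match and 4 an NRF2 match. Among all 32851 windows the shares were 16.9%, 32.4% and 12.4%. The median GC content was 67.3% in the members' windows and 52.7% in all windows, and its part in these counts was not tested.

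Fzd7 (ENSMUSG00000041075, chromosome 1, 59482424 to 59486955) had levels of 131.7, 133.5 and 125.2 CPM with DMSO and 53.9, 61.6 and 56.6 CPM with baicalin, a 2.27-fold fall (log2 fold change -1.18, SE 0.05, adjusted p = 2.04e-27). Fzd4, which is also the receptor of the non-Wnt ligand norrin, reached 49.7, 52.9 and 51.3 CPM with DMSO but 20.6, 20.3 and 21.0 CPM with baicalin. This was the steepest fall among the tested receptors, 2.48-fold (log2 fold change -1.31, SE 0.07, adjusted p = 1.58e-23). Fzd5 measured 20.6, 21.2 and 21.9 CPM with DMSO and 8.73, 8.98 and 10.4 CPM with baicalin, 2.26-fold lower (log2 fold change -1.18, SE 0.10, adjusted p = 3.98e-15). In all 3 genes every baicalin library lay well below every DMSO library, and the spread within groups was small beside the difference.

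Fzd2 (chromosome 11, 102604396 to 102608058) had the highest FPKM of the receptors in DMSO, while in CPM, which is not divided by length, Fzd7 stood level with it. Its libraries stood at 125.1, 134.5 and 124.3 CPM there and at 69.0, 66.3 and 65.2 CPM in baicalin, with no overlap (log2 fold change -0.94, SE 0.05, adjusted p = 6.87e-24). Fzd1 fell 1.29-fold, from 116.6 ± 4.35 to 90.3 ± 5.30 CPM (SD, n = 3 each, adjusted p = 1.72e-09). Fzd3, a receptor of the planar polarity branch, fell 1.43-fold, from 7.17 ± 0.59 to 5.04 ± 0.63 CPM (adjusted p = 0.00279), but after removal of length and GC trends its log2 fold change was 0.08 and was no longer called (adjusted p = 0.646, the highest of its alternatives, which began at 0.000305).

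Fzd8 was the receptor that rose, 1.33-fold (adjusted p = 0.0116), with 6.08 ± 1.03 CPM under DMSO and 8.07 ± 1.08 CPM under baicalin (SD, n = 3 each). The highest DMSO library, at 6.90 CPM, nearly met the lowest baicalin library, at 6.98 CPM. Leaving out DMSO replicate 1 ended the call (adjusted p = 0.115). Leaving out baicalin replicate 3 ended it too (adjusted p = 0.0812), as did library size alone (log2 fold change 0.28, adjusted p = 0.0869). Over its alternatives the adjusted p ran from 0.00209 to 0.125. Fzd6, Fzd9 and Fzd10 had 4, 1 and 0 reads in all.

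Summed over the 10 receptor genes, the level was 104.1, 109.3 and 102.6 FPKM in DMSO and 59.0, 62.0 and 61.2 FPKM in baicalin. The order of the receptors also differed. In DMSO Fzd2 led at 35.2 ± 1.55 FPKM, and Fzd7 (27.8 to 29.7 FPKM) and Fzd1 (27.1 to 29.2 FPKM) did not differ beyond their spread. In baicalin Fzd1 led at 21.9 ± 1.17 FPKM, ahead of Fzd2 at 18.6 ± 0.64 and Fzd7 at 12.9 ± 0.81 FPKM (SD, n = 3 each). The share of Fzd1 in the sum was 26.6% ± 0.13 in DMSO and 36.1% ± 1.06 in baicalin, and that of Fzd7 27.5% ± 0.64 and 21.2% ± 0.89.

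**Figure D2:**
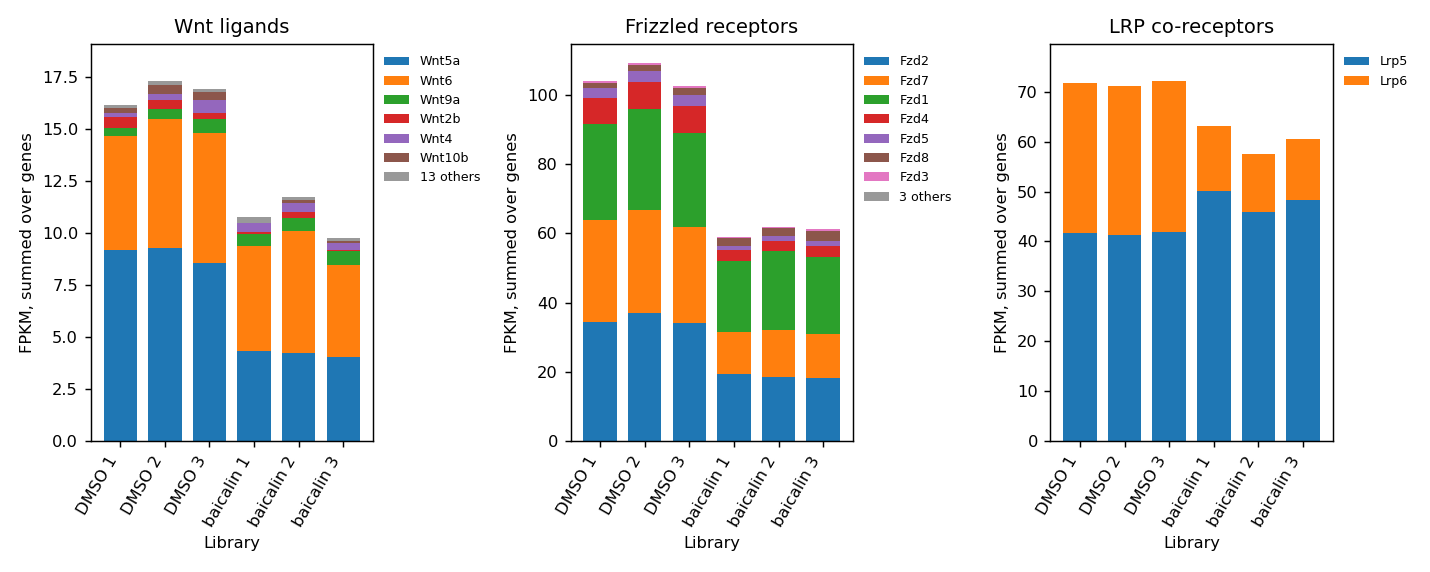
Authors' FPKM values stacked by gene in each of the 6 libraries, for the Wnt ligands, the Frizzled receptors and the LRP co-receptors. All 3 stacks are shorter in the baicalin libraries, and the Lrp6 segment shrinks while the Lrp5 segment does not.

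The 2 co-receptors, which pass the Wnt signal to beta-catenin, went opposite ways. Lrp6 (ENSMUSG00000030201, chromosome 6, 134446476 to 134566965) had 407.1, 406.6 and 412.9 CPM under DMSO against 172.8, 156.7 and 164.5 CPM under baicalin, a 2.48-fold fall (log2 fold change -1.31, SE 0.04, adjusted p = 9.54e-34). Replicates within DMSO differed by a few CPM, and no baicalin library came near them. Its call held under all 17 alternatives, with log2 fold changes from -1.44 to -0.93. Lrp5 (ENSMUSG00000024913, chromosome 19, 3584828 to 3686564) had 401.8, 399.0 and 405.2 CPM under DMSO against 477.2, 440.8 and 462.9 CPM under baicalin. The groups did not overlap and the rise was 1.14-fold (log2 fold change 0.20, SE 0.04, adjusted p = 1.14e-05), a call lost with library size alone (0.07, adjusted p = 0.0807, the highest of its alternatives, which began at 8.69e-10). In FPKM, the ratio of Lrp5 to Lrp6 was 1.39, 1.38 and 1.38 in DMSO and 3.88, 3.95 and 3.95 in baicalin. This ratio does not depend on the scaling of the libraries, but length and GC trends can alter it. With those trends removed the log2 fold changes were -0.93 for Lrp6 and 0.28 for Lrp5.

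Kremen proteins bind Dickkopf inhibitors and remove LRP6 from the cell surface. Kremen1 showed 94.5, 92.5 and 98.1 CPM under DMSO and 104.3, 100.6 and 105.1 CPM under baicalin, a 1.09-fold rise (log2 fold change 0.12, SE 0.05, adjusted p = 0.0188) with no overlap. The call was lost with DESeq2 (adjusted p = 0.0507) and on leaving out DMSO replicate 2 (adjusted p = 0.0671). With library size alone the sign was the other one (-0.0072, adjusted p = 0.897), and over its alternatives the adjusted p began at 0.00364. Kremen2 had 5 reads in all.

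Secreted inhibitors were sparse. Of 10 genes 2 were tested, and they moved in opposite directions. Sfrp2, a Frizzled-related protein that binds Wnts outside the cell, reached 2.65, 2.97 and 4.33 CPM under DMSO and 4.33, 5.31 and 5.83 CPM under baicalin, a 1.55-fold rise (log2 fold change 0.64, SE 0.19, adjusted p = 0.00296). The lowest baicalin library and the highest DMSO library stood almost level, and after removal of length and GC trends the call was lost (0.38, adjusted p = 0.0719, the highest of its alternatives, which began at 0.000398). Dkk3, a divergent Dickkopf whose action on Wnt signalling is debated, fell 1.55-fold (log2 fold change -0.63, SE 0.24, adjusted p = 0.0158), with 3.35 ± 0.60 CPM under DMSO and 2.15 ± 0.59 CPM under baicalin (SD, n = 3 each). Its groups overlapped, and the call ended when any 1 of 4 libraries was left out, namely DMSO replicate 2 (adjusted p = 0.0682) and 3 (adjusted p = 0.0722) and baicalin replicate 1 (adjusted p = 0.0745) and 3 (adjusted p = 0.0737). Over its alternatives the adjusted p ran from 0.00204 to 0.138.

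Dkk2 had 2, 3 and 5 DMSO reads and 0 in each baicalin library; at so few reads no fold is given. It did not pass the filter, and without a filter it was called lower (adjusted p = 0.0258). Dkk1 had 0 reads, Dkk4 had 4, and Frzb had 0 reads in DMSO against 5 in baicalin. Sfrp1, Sfrp4, Sfrp5 and Wif1 had 1, 7, 5 and 2 reads in all. Most of the secreted inhibitors were therefore below what this depth can compare.

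Of the 4 genes grouped as cytoplasmic feedback only Axin1 could be tested. Axin1 is the scaffold of the complex that destroys beta-catenin. Its level was 80.4, 83.0 and 87.5 CPM with DMSO and 85.8, 81.6 and 85.9 CPM with baicalin, and the overlapping groups gave a log2 fold change of 0.01 (SE 0.05, adjusted p = 0.829). This value depends on the scaling: library size alone (-0.11, adjusted p = 0.0319) and removal of length and GC trends (-0.18, adjusted p = 0.000501) each made it a call for lower, and the highest adjusted p of its alternatives was 0.997. Axin2, whose transcription beta-catenin drives in many tissues, had 1, 1 and 0 DMSO reads and 0 in each baicalin library. Nkd1 and Nkd2, which bind Dishevelled and are also induced by the pathway in other settings, had 6 and 5 reads in all. A change of these 3 genes was not detectable at this depth, and the level of Axin1 does not stand in for them.

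Of the 4 transcription factors 3 were tested and all 3 were lower, with no overlap between groups in any. Among all tested genes 34.1% were called lower, and 35.1% were lower with no overlap. Tcf7l1, the member known mostly as a repressor, was the most abundant. Levels were 123.3, 115.9 and 122.1 CPM in DMSO and 69.3, 67.9 and 65.2 CPM with baicalin, 1.79-fold lower (log2 fold change -0.84, SE 0.05, adjusted p = 6.69e-22). Tcf7l2, the main partner of beta-catenin in many adult tissues, fell 1.74-fold, from 25.5 ± 0.83 to 14.6 ± 0.70 CPM (adjusted p = 9.06e-12), and Lef1 1.41-fold, from 11.3 ± 0.33 to 7.998 ± 0.86 CPM (SD, n = 3 each, adjusted p = 0.000315). After removal of length and GC trends the log2 fold change of Lef1 was -0.28 in place of -0.50 (adjusted p = 0.0388). Exons of Lef1 overlap those of the opposite-strand gene Gm43352 over 1208 bp, which had 39 reads against 1022. Tcf7 had 5 reads in DMSO and 9 in baicalin. Tcf7l1 made up 87.9% ± 0.63 of the summed FPKM of the 4 factors in DMSO and 86.6% ± 0.42 in baicalin.

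**Figure D3:**
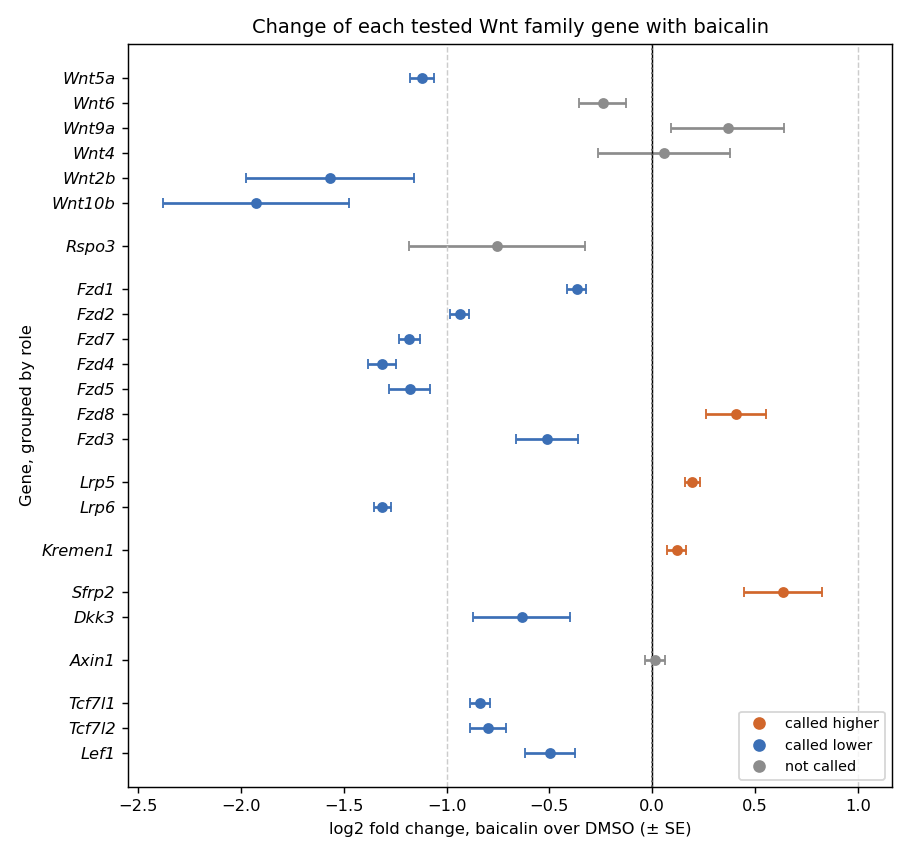
Log2 fold change of baicalin over DMSO with its SE from edgeR for the 23 tested members, grouped by role, with dashed lines at 2-fold. Falls past 2-fold stand at Wnt5a, Wnt2b, Wnt10b, Fzd4, Fzd5, Fzd7 and Lrp6, and no rise reaches 2-fold.

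Other genes of the pathway were taken from 7 lists of 85 genes. The test covered 65 of them and called 19 higher and 27 lower, with 19 not called, and their median log2 fold change was -0.11. Over all tested genes 67.7% were called, 33.6% higher and 34.1% lower, so the share called in these lists is near the background. Both genes of Wnt secretion were lower. Porcn, which attaches the lipid that Wnts need for secretion, fell 1.65-fold, the level being 250.6 ± 16.0 CPM with DMSO and 151.8 ± 8.64 CPM with baicalin (SD, n = 3 each, adjusted p = 2.56e-17). Wls, the carrier of Wnts to the cell surface, was lower by a log2 fold change of -0.27 (SE 0.04, adjusted p = 1.35e-08), but was called higher after removal of length and GC trends (0.10, adjusted p = 0.0208).

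Among 4 tested receptors outside the Frizzled family, Ror1, a receptor for WNT5A, fell 2.48-fold, its DMSO libraries holding 319, 289 and 322 reads and its baicalin libraries 121, 116 and 119 (adjusted p = 4.98e-15). Ryk was lower by -0.11 (adjusted p = 0.0152), which was not called when DMSO replicate 1, DMSO replicate 2 or baicalin replicate 3 was left out, whereas Ptk7, a co-receptor of the polarity branch, was 1.35-fold higher (adjusted p = 5.06e-14). Lgr4, a receptor of the R-spondins, was not called (-0.04, SE 0.05, adjusted p = 0.526). Of 4 extracellular modulators, the glypican Gpc4 fell 1.62-fold, while Tpbg and Igfbp4, both described as inhibitors of signalling through LRP6, rose 1.33-fold each, Igfbp4 with a log2 fold change of 0.41, or 0.26 after removal of length and GC trends.

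In the cytoplasm 5 of 19 tested genes rose and 10 fell, and the median was -0.16. Among all tested genes 33.6% rose and 34.1% fell. Ctnnb1, which encodes beta-catenin, fell 1.16-fold (SE 0.04 on the log2 scale, adjusted p = 1.38e-06), its level being 540.8 ± 10.8 CPM with DMSO and 466.4 ± 6.71 CPM with baicalin (SD, n = 3 each). Its log2 fold change was -0.21, or -0.34 with library size alone. Apc and Amer1, parts of the destruction complex, had log2 fold changes of -0.72 each (adjusted p = 1.1e-17 and 2.02e-13), and that of Apc was -0.22 after removal of length and GC trends. Dact1, a partner of Dishevelled, fell 2.29-fold (adjusted p = 8.93e-09). Frat2, an inhibitor of the kinase GSK3 that favours beta-catenin, went the other way, from 37, 31 and 36 DMSO reads to 109, 130 and 100 baicalin reads (3.42-fold higher, adjusted p = 1.05e-11). Its relative Frat1, named after its values were seen, had 0, 2 and 4 DMSO reads and 6, 16 and 11 baicalin reads, and did not pass the filter.

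Of 12 nuclear cofactors 4 rose and 4 fell, and the median was 0.05. These counts are near the shares of all tested genes, 33.6% higher and 34.1% lower. The co-repressors Tle1 and Tle2 moved apart, with log2 fold changes of 0.52 and -0.69 (adjusted p = 3.33e-08 and 1.49e-08). Ctnnbip1, which blocks the binding of beta-catenin to TCF proteins, was higher (0.43, adjusted p = 0.000508), and Chd8, a chromatin remodeler that represses beta-catenin targets, lower (-0.36, adjusted p = 2.33e-09). After removal of length and GC trends neither was called, and Chd8 stood at -0.0012. In the planar polarity list 1 of 9 tested genes was higher, Vangl2 (0.49), and 5 were lower, against the same shares of all genes. Those lower included Daam1 (-0.92), which links Dishevelled to actin, Prickle2 (-0.56) and Prickle1 (-0.44).

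Genes reported as targets of beta-catenin in other cells included rises and falls. Of 24 genes 15 were tested, with 6 higher, 3 lower and 6 not called, and a median of 0.22, where 67.7% of all genes were called. The share called is near the background, but the sizes and directions were not. The list was chosen with earlier results of these data known, and no set test was run, so this difference was not tested. Of the 15 genes 5 rose at least 2-fold, against 5.24% of all genes, and 1 fell that far, against 9.71%. Lower calls were 3 of 15, against 34.1% of all genes. Besides the genes named below, Cd44 (2.12-fold) and Ppard (1.81-fold) were called higher, both named after their values were seen. Myc rose 2.49-fold, its level being 31.0 ± 3.80 CPM with DMSO and 77.3 ± 1.81 CPM with baicalin (SD, n = 3 each, adjusted p = 6.47e-22), whereas the cyclin gene Ccnd1, with a log2 fold change of 0.08 (SE 0.04), was not called (adjusted p = 0.0947). The largest differences were those of Wisp2 (16.9-fold higher), Fosl1 (7.58-fold higher), Fst (4.15-fold lower) and Jun (2.65-fold higher). Fosl1, Jun and Myc are targets of many other pathways, and exons of Fosl1 overlap those of the opposite-strand gene Ccdc85b over 1163 bp, with 8129 reads counted for Ccdc85b against 12351 for Fosl1. With the strand setting unknown, the value of Fosl1 is uncertain. Znrf3, which removes Frizzled receptors from the surface, was lower (-0.47, adjusted p = 0.00205), Apcdd1 was not called (-0.21, adjusted p = 0.091), and Lgr5, Rnf43, Notum and Sp5 had 5, 2, 2 and 0 reads in all. These 6 are named after their values were seen.

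**Figure D4:**
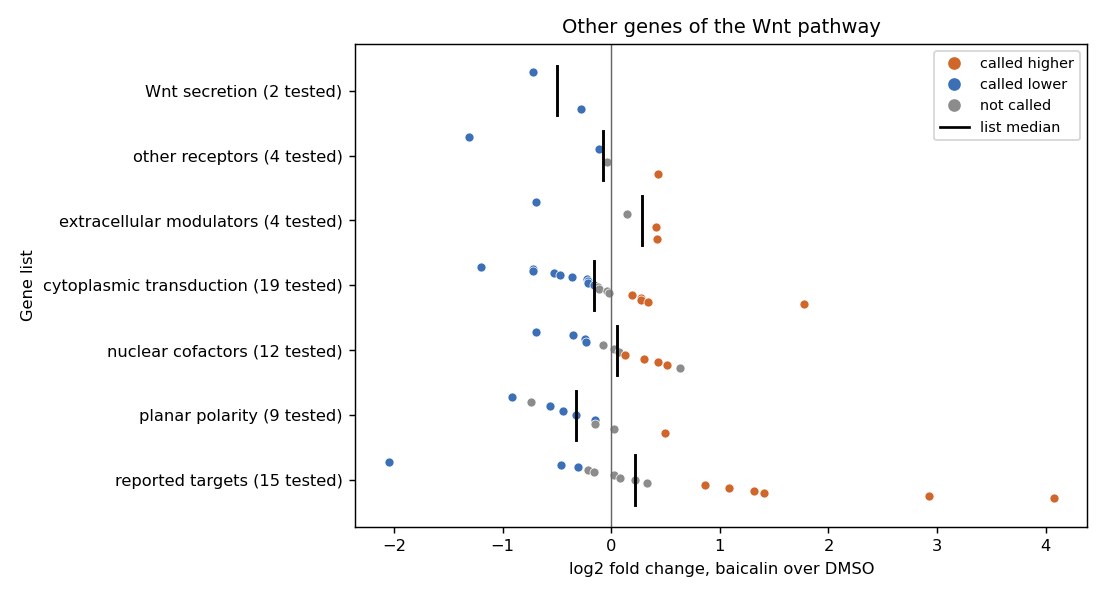
Log2 fold change of baicalin over DMSO for the 65 tested genes of the 7 other Wnt pathway lists, 1 point per gene, with the list median as a black line. The medians run from -0.50 for Wnt secretion to 0.28 for the extracellular modulators, and the reported targets spread from -2.05 (Fst) to 4.08 (Wisp2).

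Markers of cell type moved with the treatment as well, and their part in the results above was not tested. Of 9 fat cell markers 7 were tested and 6 of these were lower, against 34.1% of all tested genes. The other, Cebpa, was not called (log2 fold change 0.68, adjusted p = 0.0579), though every baicalin library lay above every DMSO library. The summed level of the list was 1804 to 1978 CPM in DMSO and 802.7 to 817.2 CPM in baicalin. Lpl and Fabp4 made up nearly all of that sum. All 7 markers of fibroblasts and preadipocytes were tested, with 6 lower and 1, Thy1, higher. The shares of all tested genes were 34.1% lower and 33.6% higher. The summed level of these 7, most of it Col1a1 and Col1a2, was 14080 to 14830 CPM against 9455 to 9728 CPM. The smooth muscle list, nearly all of it Acta2, summed to 120.6 to 127.1 CPM in DMSO and 20.4 to 23.4 CPM in baicalin. Macrophage and endothelial lists summed to at most 6.17 and 0.55 CPM in any library. Of the 6 genes of the macrophage list 3 were tested. Cd68 was higher (2.12-fold, 66 DMSO and 133 baicalin reads, adjusted p = 0.00106), and Csf1r (0.45) and Lyz2 (-0.46) were not called (adjusted p = 0.268 and 0.122). Adgre1, Itgam and the general leukocyte gene Ptprc had 1, 1 and 6 reads in all. Each of the 4 endothelial markers had at most 8 reads. Mitochondrial genes took 1.59% to 1.87% of counts in DMSO and 1.26% to 1.36% in baicalin.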

How the data were processed

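RNA of 6 samples, 3 DMSO and 3 baicalin by the treatment label, was analysed from 1 deposited table of read counts and FPKM values for 54532 genes. The authors made the counts with featureCounts 1.5.0-p3 and the FPKM values from counts and gene length, per the series design text. The submitters' processing notes name mm10 as the build. No aligner, annotation or strand setting is given in the sources used here.

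All genes were fitted together with R 4.3.3 and edgeR 4.0.16 (filterByExpr, TMM factors, robust quasi-likelihood), with no term but treatment. A gene is called where the p adjusted by Benjamini-Hochberg over the 13728 tested genes is under 0.05, and an adjusted p is from this test where no other is named. In simulated counts with a common dispersion the test called 42% of 1.2-fold changes, 91.84% of 2-fold changes and 0.045% of unchanged genes. Few genes were changed there, so the scaling and calls under a change as broad as in these data were not checked. Alternatives were DESeq2 1.42.0, limma-voom (limma 3.58.1), RLE factors, library size alone, no filter, a 1 CPM minimum throughout 1 group, a replicate block, limma-trend on log2(FPKM + 1), with and without a filter, and log2(FPKM + 0.1), lowess trends (span 0.3) on exon length and transcript GC removed, and each library left out. Filtered FPKM fits needed an FPKM of 1 or more in 3 libraries.

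Coordinates come from GENCODE M21, which holds all 56 members under the same symbols, and promoter windows from RefSeq (GRCm38.p6), which matched 37 of them. All tested members are named by role. Of each other list the rule names up to 4 called genes with the largest change at a mean of at least 2 CPM, plus Ctnnb1, Wls, Porcn, Ccnd1 and Myc. Genes outside it were added after their values were seen (Lgr4, Frat1, Cd44, Ppard, Znrf3, Apcdd1, Lgr5, Rnf43, Notum and Sp5, and the untested members with under 10 reads). Members and lists were chosen with earlier results of these data known. Figures were drawn with matplotlib 3.10.9.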

Additional observations from a re-analysis of the deposited data

How the results depend on the processing

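The count of members called lower was 10 to 16 under every alternative tried, against 14 in the reported test. The count called higher was 1 with library size alone and 2 on log2(FPKM + 1) without a filter, against 4, and 3 or 4 under all others. The log2(FPKM + 1) and log2(FPKM + 0.1) fits with a filter left out, of the called members, Wnt2b, Wnt10b, Fzd3 and Dkk3, which are too low for it. On log2(FPKM + 1) without a filter Fzd8, Sfrp2, Fzd3, Lef1, Dkk3 and Wnt2b were not called. The pseudocount of 1 also shrinks low genes, as for Fzd5 (-0.78 in place of -1.18) and Wnt10b (-0.31 in place of -1.93). With each library left out in turn, 3 to 4 members were higher and 13 to 16 lower, 19 to 21 genes of the other lists higher and 25 to 27 lower, and 4424 to 4583 of all genes higher and 4397 to 4563 lower.

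Of 375 values of single members under the alternatives, 347 kept their direction and their side of the threshold or were uncalled in both, 17 lost the call, 7 gained one and 4 changed sign, with a call in at least 1 of the 2 fits. Those 4 were Kremen1 (-0.0072) and Axin1 (-0.11) with library size alone, and Axin1 (-0.18) and Fzd3 (0.0842) with the length and GC trends removed. In the other lists Wls changed sign with those trends removed (0.10). Apart from the construction of each alternative, the cause was not tested.

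For DMSO and baicalin libraries of equal replicate number, the correlations of their deviations from the group means were 0.03, 0.04 and -0.0015. For unequal numbers they ran from -0.0539 to 0.0236. All were small, and with 3 libraries per group they cannot tell whether the samples were paired. With the replicate block 4 members were higher and 15 lower, Wnt6 being the one added (-0.25, adjusted p = 0.0432), and 4660 of all genes were higher and 4731 lower. Depth limits the 33 untested members, and a level of up to 3 counts per library stays undetected for those at 0.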
